A study of Rattus norvegicus with 6 samples.

Results

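The aminoacyl-tRNA synthetases of rat liver were followed on 1-colour Affymetrix arrays in hypercholesterolemic rats given a probiotic or saline alone. The family was defined by a list of 35 gene names, 19 for enzymes of the cytosol and 16 for enzymes of mitochondria, and every probe set whose annotation holds a single gene entry with a symbol from the list was taken. This gave 50 probe sets for 32 genes, of 14217 genes with a symbol on the array. The family had been picked on measured values of the same comparison, since a probe set of Eprs1 was among those with the smallest p, so the group differences below are a description and not a test of the family. Lars2 and Pars2 had no probe set under these names. The probe set of Mars2 lists this symbol for more than 1 gene entry and was not used.

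All rats ate a fat-rich diet for 30 d to raise cholesterol and stayed on it for another 30 d. In this second period the probiotic group (3 liver samples) received Lactobacillus casei Zhang in 1 ml of saline daily by gavage, and the high-fat group (3 liver samples) received 1 ml of saline alone. The labels give no strain, sex or age, and they do not say whether each sample came from its own animal, so any p-value measures only the spread between these samples. Both groups carry the diet, and no group on normal chow was analysed here.

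Aminoacyl-tRNA synthetases join each amino acid to its transfer RNA and so supply the ribosome with charged tRNAs. Cytosol and mitochondria translate separately and mostly use enzymes from separate nuclear genes, whose names end in 1 and 2. Gars1 and Kars1 are exceptions that serve both compartments. In mammals several cytosolic synthetases are held in a multi-synthetase complex by the scaffold proteins encoded by Aimp1, Aimp2 and Eef1e1. When amino acids run short, uncharged tRNA activates the kinase encoded by Eif2ak4, and translation of the transcription factor ATF4 then increases. ATF4 drives genes of amino acid synthesis and uptake together with many cytosolic synthetases.

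Each array held 31099 probe sets, with a mean of 500.3 after trimming on every array and a median intensity of 90.4 to 147.2. Levels are given as log2(intensity + 16) after quantile normalization, and each difference is probiotic minus high-fat on that scale. The level of a probe set does not rank its gene against others. Where a distance between probe sets is given below, it is compared between arrays and not read as a level. Pairs of arrays from the same group correlated at 0.917 to 0.943, and pairs from different groups at 0.897 to 0.946. Of 10 hepatocyte markers, 9 were tested, and their median difference was 0.030. RNA integrity, as read from control probe sets, was not alike in the groups. For Actb, the log2 distance of the 3' control probe set above the 5' one, which grows as RNA is degraded, was 2.08, 3.07 and 2.39 in probiotic samples 1, 2 and 3 and 1.95, 1.48 and 1.97 in high-fat samples 1, 2 and 3. The gap of Gapdh was 0.667, 1.58 and 1.27 in the probiotic and 0.533, 0.496 and 0.754 in the high-fat samples. Every probiotic sample had a wider Actb gap than every high-fat sample. In a model with the Actb gap, RNA integrity and group therefore cannot be told apart. Values from that model, given below, are a description and not a correction.

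Signals of cytosolic synthetases lay lower in the probiotic group, by a modest amount that was spread over most of the enzymes, and those of mitochondrial synthetases were split between directions. Of the 31 tested cytosolic probe sets, 28 had a difference below 0, against 49.5% of all 18625 probe sets tested. Their median difference was -0.33, with an interquartile range of -0.63 to -0.15, while the median over all probe sets tested was 0.0042 and their interquartile range -0.24 to 0.26. Of the 15 tested mitochondrial probe sets, 8 had a difference below 0, and the median was -0.016. By the brightest tested probe set of each gene, 17 of 19 cytosolic genes had a negative difference and 5 of 12 mitochondrial genes did. In a bulk sample, fewer cells of a type cannot be told apart from less RNA per cell.

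No single synthetase passed the test over all probe sets. With limma, 0 of the 46 tested member probe sets had a Benjamini-Hochberg adjusted p under 0.05, where 0.0215% of all probe sets tested did. At an unadjusted p under 0.05 there were 9 members, all with negative differences, against 3.86% of all probe sets with negative and 2.99% with positive ones. Groups did not overlap in 11 member probe sets of 10 genes, each with lower values in the probiotic group, against 6.7% of all probe sets in that direction. No member had the reverse arrangement, which was found in 6.02% of all probe sets. Since the family was picked in this contrast, nothing is read from these shares. The 9 members with a small p numbered 5 without high-fat sample 2, and the 11 without overlap numbered 19 without high-fat sample 1, where fewer controls have to be cleared.

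**Figure D1:**
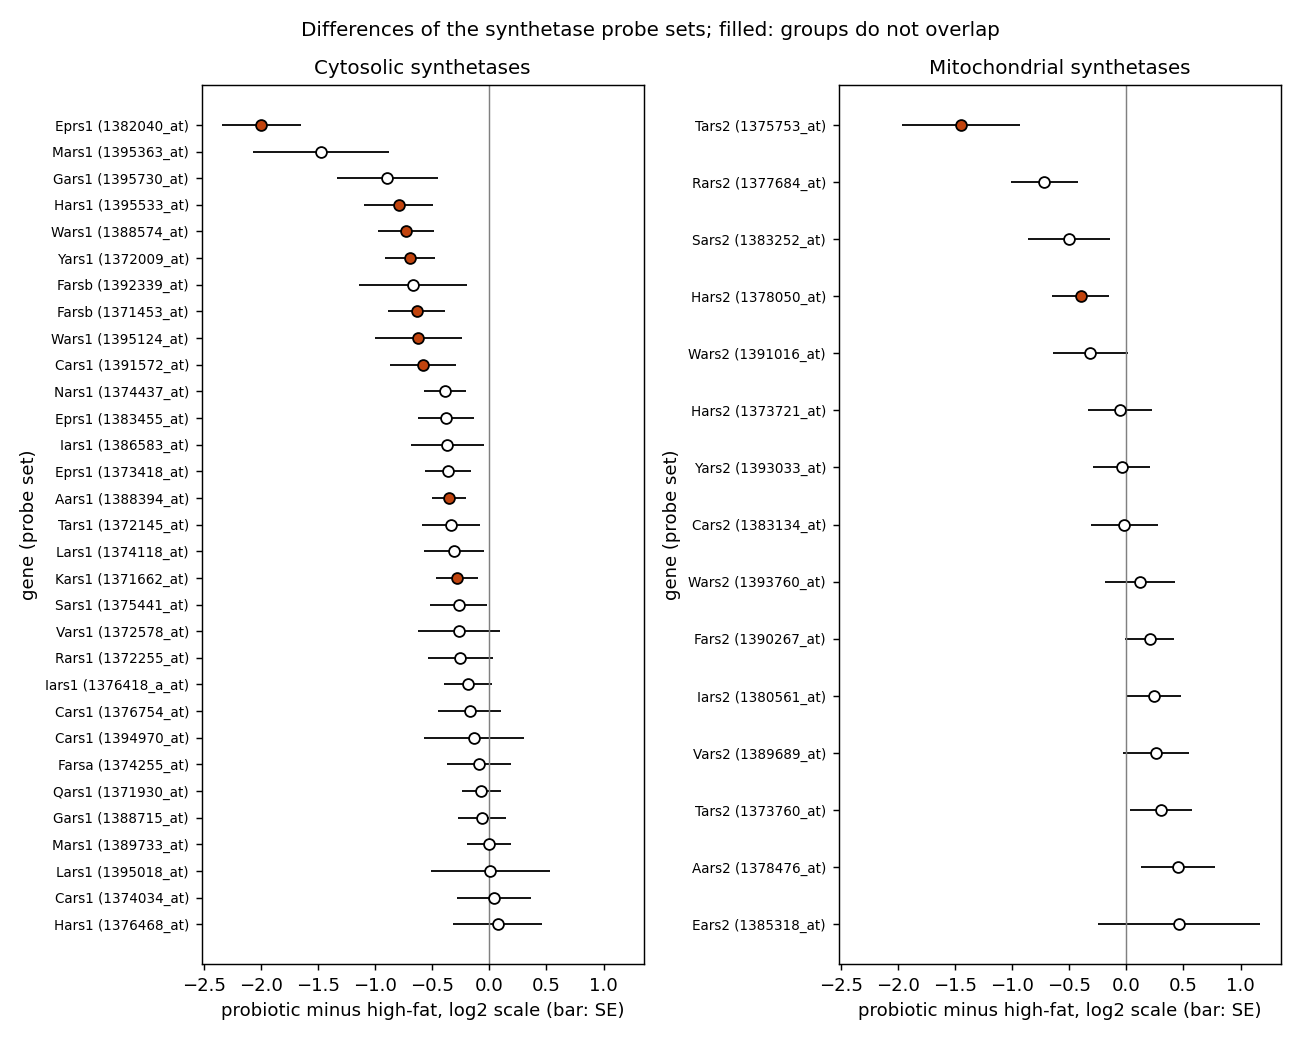
Difference of each tested probe set, probiotic minus high-fat on the log2 scale, with its SE, for 31 cytosolic (left) and 15 mitochondrial (right) probe sets. Filled points mark groups that do not overlap, and 28 cytosolic but only 8 mitochondrial points lie below 0.

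Averaged over its probe sets, the cytosolic family separated the samples by group. The mean deviation of the 31 probe sets from their 6-sample means was -0.12, -0.21 and -0.30 in probiotic samples 1, 2 and 3 and 0.22, 0.26 and 0.16 in high-fat samples 1, 2 and 3. Every probiotic sample lay below every high-fat sample, and the means were -0.213 ± 0.091 for probiotic samples and 0.213 ± 0.053 for high-fat samples (SD, n = 3 each). Without the 3 Eprs1 probe sets the values were -0.086, -0.20 and -0.28 in the probiotic and 0.22, 0.22 and 0.12 in the high-fat samples, so the separation did not rest on Eprs1. High-fat sample 2 held the highest value of 17 of the 31 probe sets and high-fat sample 1 that of 9. The lowest value was in probiotic sample 1 for 9 probe sets, in sample 2 for 9 and in sample 3 for 5, and in high-fat samples 1, 2 and 3 for 2, 5 and 1. Probiotic sample 2 held the highest value of 2 probe sets.

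The mitochondrial family did not separate in this way. Its mean deviation was -0.069, -0.086 and 0.010 in the probiotic samples and 0.13, -0.10 and 0.12 in the high-fat samples, and high-fat sample 2 was the lowest of all. Set against the mitochondrial family within each array, the cytosolic one stood at -0.053, -0.13 and -0.32 in the probiotic and 0.096, 0.37 and 0.034 in the high-fat samples. These values do not overlap either, but probiotic sample 1 and high-fat sample 3 lie close together. The distance of the cytosolic median difference from the mitochondrial one was -0.32 on the log2 scale. With the Actb gap in the model, the cytosolic median was -0.35, the mitochondrial one -0.18 and the distance between them -0.17. As this gap separates the groups, these values do not correct for RNA integrity.

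**Figure D2:**
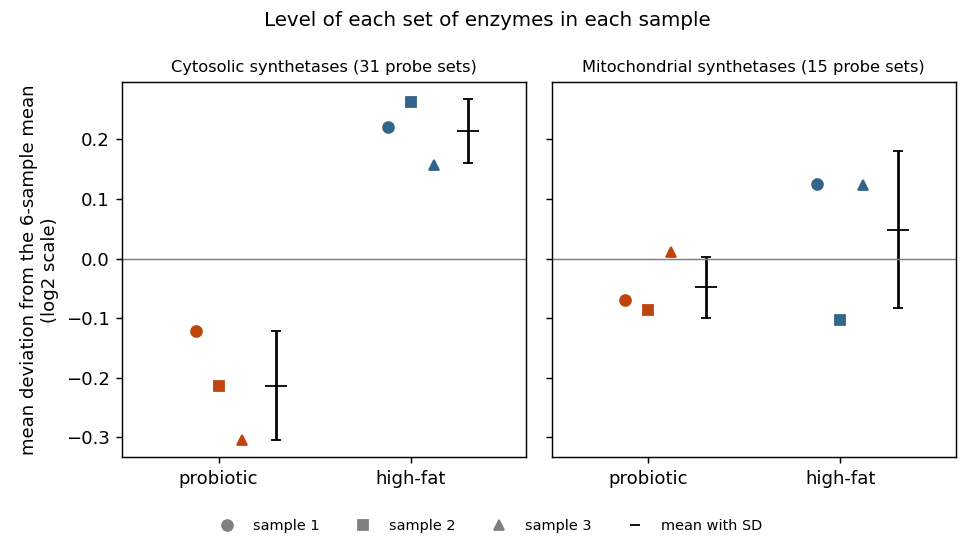
Mean deviation of each family from its 6-sample mean on the log2 scale, by sample, for cytosolic (left) and mitochondrial (right) enzymes, with the group mean and SD beside the points. Cytosolic values run from -0.30 to -0.12 in the probiotic and from 0.16 to 0.26 in the high-fat samples, and mitochondrial values overlap.

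Eprs1 encodes the glutamyl-prolyl-tRNA synthetase, a fused enzyme of the multi-synthetase complex that charges tRNAs with glutamic acid and with proline. In human monocytic cells it also forms part of a complex that silences translation of inflammatory transcripts after interferon gamma. The array carries 4 probe sets with its name, and they did not give the same size of difference. Probe set 1382040_at, the one that led to the family, had log2 levels of 9.30, 8.03 and 8.30 in probiotic samples 1, 2 and 3 and of 10.30, 10.97 and 10.35 in high-fat samples 1, 2 and 3. The groups did not overlap, and the closest values, probiotic sample 1 and high-fat sample 1, were still about a log2 unit apart. Its difference was -1.997 (SE 0.345), a 3.99-fold lower signal in the probiotic group. It passed the adjusted threshold of limma only without probiotic sample 1 (adjusted p = 0.0472). Its adjusted p was 0.485 with all samples, and 0.115 to 0.999 over the other settings.

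The other tested Eprs1 probe sets had far smaller differences. Probe set 1383455_at had 12.18, 13.06 and 12.35 in the probiotic and 12.58, 13.04 and 13.12 in the high-fat samples, a difference of -0.38 (SE 0.247). Probe set 1373418_at had 11.92, 12.61 and 12.46 in the probiotic and 12.55, 12.81 and 12.71 in the high-fat samples, a difference of -0.36 (SE 0.200). Without probiotic sample 1 the differences were -0.20 for 1383455_at and -0.15 for 1373418_at, and without probiotic sample 2 the first of these was -0.65. In both, probiotic sample 1 was the lowest and probiotic sample 2 lay among the controls. The fourth, 1382648_at, lay below the signal filter and had intensities of 8.8, 84.8 and 87.5 in the probiotic and 82.8, 15.7 and 2.3 in the high-fat samples, with no group pattern.

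The distance between 1382040_at and the mean of the other tested Eprs1 probe sets on the same array was -2.75, -4.81 and -4.11 in the probiotic and -2.27, -1.96 and -2.57 in the high-fat samples. The means were -3.89 ± 1.04 for probiotic samples and -2.26 ± 0.304 for high-fat samples (SD, n = 3 each), so the group difference of this distance was -1.63 between probe sets named for the same gene. Probiotic sample 2 had both the most negative distance and the widest Actb gap, and high-fat sample 2 had the least negative distance and the narrowest Actb gap. The samples between them also followed the same order by both measures, so all 6 were ranked alike, although the Actb gaps of high-fat samples 1 and 3 were close. With the Actb gap in the model, the difference of 1382040_at was -1.15, that of 1383455_at -0.82 and that of 1373418_at -0.64, which left -0.42 for the distance. What part RNA integrity had in this was not tested further, and where each probe set lies along the transcript is not given in the sources used here.

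**Figure D3:**
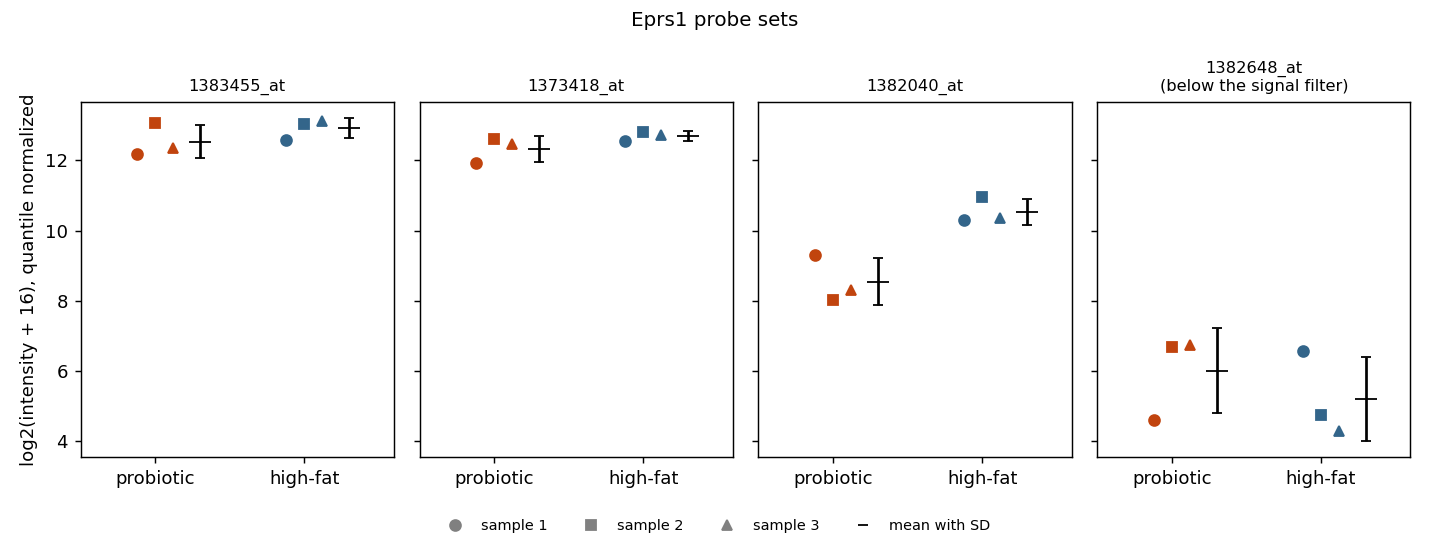
Log2 level of the 4 Eprs1 probe sets in each sample, with the group mean and SD. Only 1382040_at has groups that do not overlap, at 8.03 to 9.30 in the probiotic and 10.30 to 10.97 in the high-fat samples.

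Outside Eprs1, the enzymes for tryptophan and tyrosine had lower values in every probiotic sample by each of their probe sets. Wars1, the tryptophanyl-tRNA synthetase, which is induced by interferon gamma in human cells, had 8.39, 8.78 and 8.52 in the probiotic and 9.07, 9.62 and 9.19 in the high-fat samples by probe set 1388574_at. That is a difference of -0.73 (SE 0.242) with no overlap. Its other probe set, 1395124_at, had 6.31, 6.74 and 6.83 in the probiotic and 6.93, 7.73 and 7.09 in the high-fat samples, a difference of -0.62 (SE 0.383), also with no overlap, and -0.39 without high-fat sample 2. Both probe sets were thus lower in every probiotic sample, with high-fat sample 2 the highest.

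Yars1, the tyrosyl-tRNA synthetase, whose fragments act as cytokines when cells release them, had 10.23, 10.71 and 10.48 in the probiotic and 11.02, 11.52 and 10.97 in the high-fat samples. Its difference was -0.70 (SE 0.219), a 1.62-fold lower signal. Over 17 other settings it ranged from -0.81 to -0.52. Every probiotic sample lay below every high-fat sample, and high-fat sample 2 was again the highest.

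Farsb encodes the beta subunit of the cytosolic phenylalanyl-tRNA synthetase and Farsa the alpha subunit. Farsb had 9.54, 9.46 and 9.35 in the probiotic and 9.58, 10.40 and 10.28 in the high-fat samples by probe set 1371453_at, a difference of -0.63 (SE 0.251). The groups did not overlap, but high-fat sample 1 lay beside the probiotic samples. A further Farsb probe set, 1392339_at, had a difference of -0.67 (SE 0.471) with overlap, at 6.10, 5.98 and 6.29 in the probiotic and 6.15, 7.37 and 6.84 in the high-fat samples. Leaving out high-fat sample 2 gave -0.37, and a model with the Actb gap gave -0.28. The partner subunit Farsa had 8.55, 9.42 and 9.18 in the probiotic and 8.99, 9.44 and 8.99 in the high-fat samples, a difference of -0.092 (SE 0.279). The subunits of this enzyme thus had values of different size, and the difference between them was not tested.

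Aars1, the alanyl-tRNA synthetase, had 12.68, 12.63 and 12.94 in the probiotic and 13.06, 13.15 and 13.10 in the high-fat samples. The groups did not overlap and the difference of -0.35 (SE 0.145) ranged from -0.45 to -0.27 over 17 other settings. Kars1, the lysyl-tRNA synthetase of both compartments, had 10.57, 10.27 and 10.55 in the probiotic and 10.70, 10.89 and 10.65 in the high-fat samples, a difference of -0.29 (SE 0.185) with no overlap. It is named here after its values were seen.

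Hars1 and Cars1, the histidyl- and cysteinyl-tRNA synthetases, gave values that hung on the probe set. Hars1 had 8.30, 7.97 and 7.84 in the probiotic and 8.60, 9.40 and 8.49 in the high-fat samples by 1395533_at, a difference of -0.79 (SE 0.302) with no overlap. Leaving out high-fat sample 2 gave -0.52, and a model with the Actb gap gave -0.35. By 1376468_at it had 8.46, 8.99 and 8.19 in the probiotic and 8.94, 7.61 and 8.87 in the high-fat samples, a difference of 0.073 (SE 0.387), whose sign turned in 6 of 17 other settings. High-fat sample 2 was the highest of all by 1395533_at and the lowest by 1376468_at.

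For Cars1, probe set 1391572_at had 8.66, 8.21 and 8.33 in the probiotic and 9.53, 8.69 and 8.72 in the high-fat samples, a difference of -0.58 (SE 0.290) with no overlap. The remaining Cars1 probe sets had differences of 0.042, -0.17 and -0.14, all with overlap. In each of the 4 the highest value was that of high-fat sample 1, and without this sample the differences were -0.31 for 1391572_at, 0.45 for 1374034_at, 0.083 for 1376754_at and 0.29 for 1394970_at, so only the first stayed negative.

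**Figure D4:**
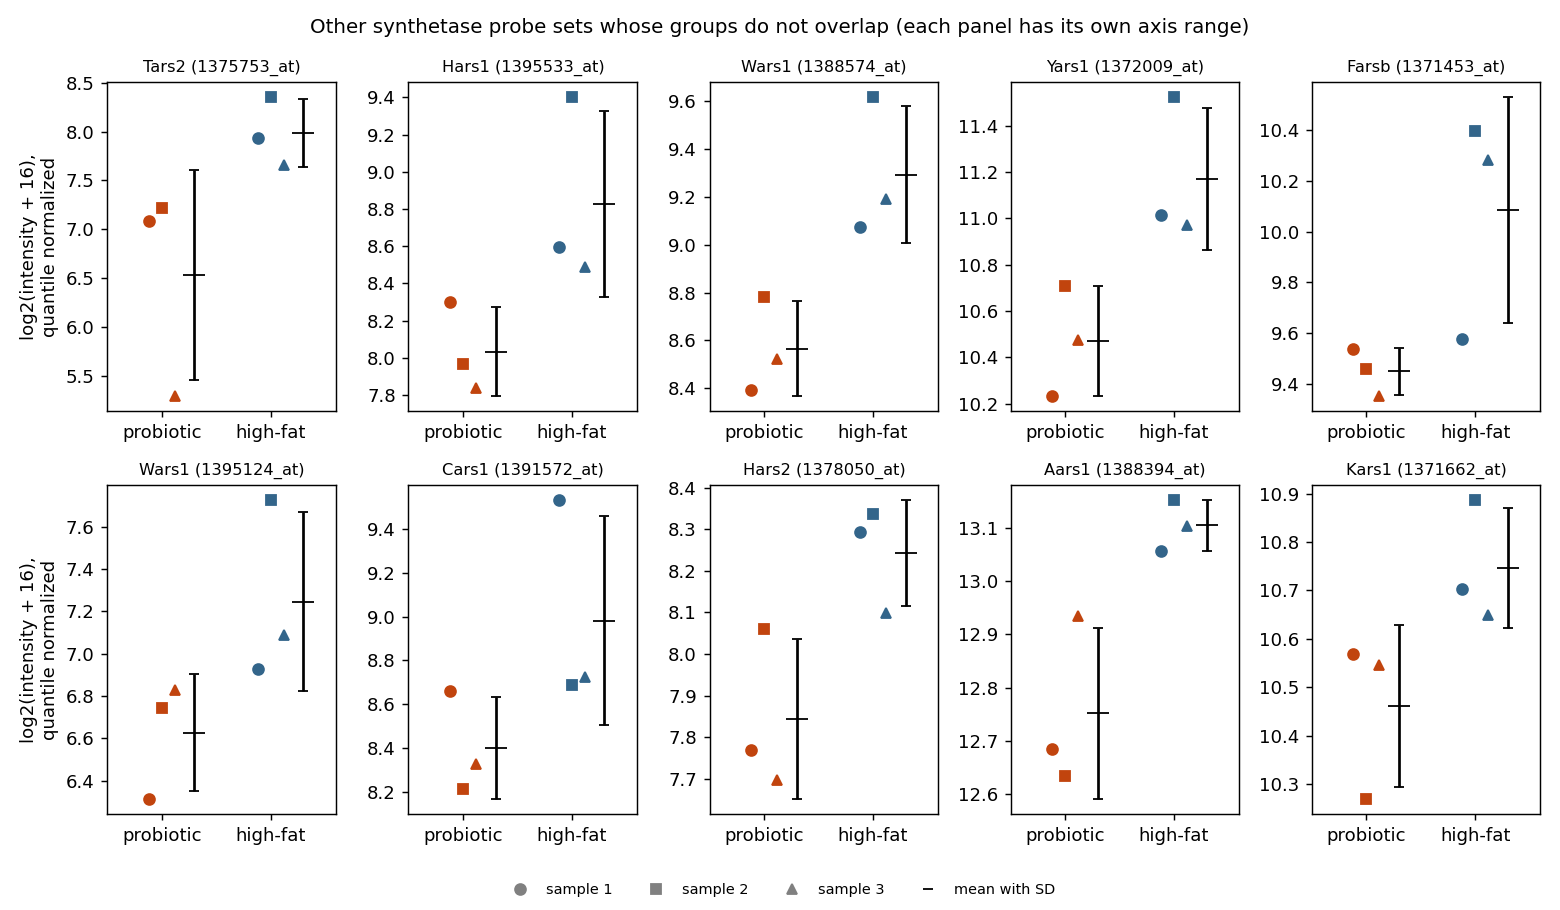
Log2 level by sample, with the group mean and SD, of the 10 synthetase probe sets other than Eprs1 whose groups do not overlap. All have lower values in the probiotic samples, from Tars2 1375753_at with a difference of -1.45 to Kars1 with -0.29.

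The rest of the cytosolic enzymes had overlapping groups. The asparaginyl enzyme Nars1 had a difference of -0.39, the threonyl enzyme Tars1 -0.33, the leucyl enzyme Lars1 -0.31 and 0.0072 by its probe sets, the seryl enzyme Sars1 -0.27, the valyl enzyme Vars1 -0.26, the arginyl enzyme Rars1 -0.25, the isoleucyl enzyme Iars1 -0.19 and -0.37, and the glutaminyl enzyme Qars1 -0.069. Their SEs ran from 0.174 for Qars1 to 0.520 for Lars1 by 1395018_at. The glycyl enzyme Gars1 had -0.065 by its brightest probe set and -0.89 by 1395730_at, and the methionyl enzyme Mars1 had -0.00013 and, by 1395363_at, -1.47. Probe set 1395363_at of Mars1 had 8.17, 5.88 and 6.13 in the probiotic and 8.88, 8.06 and 7.65 in the high-fat samples, with overlap through probiotic sample 1. Below the signal filter and not tested were a probe set each of Kars1 (-0.31) and Vars1 (0.34).

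Of the 12 genes with several tested probe sets, 7 had only negative differences and 5 had mixed signs. In 10 of the 12 the other probe sets averaged a more negative difference than the brightest one. The median was -0.64 for the average of the other probe sets and -0.060 for the brightest. A size read from a dimmer probe set of these genes was therefore not matched by the brightest in most of them, and this holds for Eprs1, Mars1, Gars1, Hars1 and Tars2.

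Enzymes inside and outside the multi-synthetase complex had medians close to each other. The 12 probe sets of the 7 complex enzymes (Eprs1, Iars1, Kars1, Lars1, Mars1, Qars1 and Rars1) had a median difference of -0.30 with 11 negative, and the 19 probe sets of the 12 other enzymes had -0.35 with 17 negative. The complex set thus holds the 3 tested Eprs1 probe sets, among them 1382040_at, which led to the family. Its median without them is not given. Synthetases also fall into class I and class II by the fold of their catalytic domain. This grouping was added after the values were seen, with Eprs1, which has domains of both classes, left out. The 16 class I probe sets had a median of -0.26 and the 12 class II probe sets -0.34. Differences between these sets were not tested.

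Among mitochondrial enzymes, Tars2, Rars2, Sars2 and Hars2 held the most negative values. Tars2, the threonyl enzyme, had 7.09, 7.21 and 5.29 in the probiotic and 7.93, 8.35 and 7.66 in the high-fat samples by 1375753_at, a difference of -1.45 (SE 0.518) with no overlap. Without probiotic sample 3, which stood far below the rest, it was -0.83. Its brightest probe set, 1373760_at, had 9.40, 10.23 and 9.57 in the probiotic and 9.52, 9.10 and 9.66 in the high-fat samples, a difference of 0.31 (SE 0.274) with overlap. Leaving out probiotic sample 2 gave 0.056, leaving out high-fat sample 2 gave 0.14 and leaving out both gave -0.11, while a model with the Actb gap gave -0.34.

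Rars2, the arginyl enzyme, had 8.53, 8.47 and 9.17 in the probiotic and 9.12, 9.91 and 9.29 in the high-fat samples. Its difference was -0.72 (SE 0.294), and the groups overlapped through probiotic sample 3 and high-fat sample 1. With the Actb gap in the model it was -0.36. Sars2, the seryl enzyme, had 7.27, 6.56 and 7.03 in the probiotic and 7.60, 7.02 and 7.74 in the high-fat samples, a difference of -0.50 (SE 0.360) with overlap that was -0.31 without probiotic sample 2. Hars2, the histidyl enzyme, had 7.77, 8.06 and 7.70 in the probiotic and 8.29, 8.34 and 8.10 in the high-fat samples by 1378050_at, a difference of -0.40 (SE 0.250) with no overlap. By its brightest probe set Hars2 had a difference of -0.054 (SE 0.277), whose sign turned in 4 of 17 other settings. Leaving out high-fat sample 1 gave -0.27, and leaving out high-fat sample 2 gave 0.17.

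At the other end, Ears2, the glutamyl enzyme, had 7.67, 5.88 and 7.87 in the probiotic and 7.67, 5.28 and 7.08 in the high-fat samples. The value of 0.46 (SE 0.710) was smaller than its SE, sample 2 was lowest in both groups, and the difference was -0.22 when high-fat sample 2 was left out and 1.10 when probiotic sample 2 was. Aars2, the alanyl enzyme, had 7.59, 8.23 and 8.38 in the probiotic and 7.45, 7.37 and 8.01 in the high-fat samples, a difference of 0.45 (SE 0.322) with overlap. Leaving out probiotic sample 3 gave 0.30, leaving out probiotic sample 1 gave 0.69, and a model with the Actb gap gave 0.044. Vars2, the valyl enzyme, had 8.08, 8.15 and 8.89 in the probiotic and 7.92, 8.08 and 8.34 in the high-fat samples, a difference of 0.26 (SE 0.292) that was 0.0036 without probiotic sample 3. Iars2, the isoleucyl enzyme, had 9.57, 9.55 and 10.17 in the probiotic and 9.46, 9.41 and 9.67 in the high-fat samples, a difference of 0.25 (SE 0.235) that was 0.042 without probiotic sample 3. Fars2 had 0.20, Yars2 -0.041 and Cars2 -0.016, and Wars2 had 0.12 and -0.32 by its probe sets. Nars2 lay below the signal filter, with a value of 0.67 that was not tested.

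For 10 amino acids a cytosolic and a mitochondrial enzyme were both tested. By the brightest probe sets the mitochondrial difference lay above the cytosolic one for 6 and below it for 4. For alanine the difference was -0.35 for Aars1 and 0.45 for Aars2, and for tyrosine -0.70 for Yars1 and -0.041 for Yars2. For tryptophan Wars1 had -0.73 and Wars2 0.12 by the brightest probe sets. The order was the reverse for arginine, with -0.72 for Rars2 and -0.25 for Rars1, and likewise for serine, histidine and cysteine. Glutamic acid and phenylalanine, whose enzymes are not named in this way, stand outside this count. By the brightest probe sets Eprs1 had -0.38 and Ears2 0.46, and Farsa had -0.092, Farsb -0.63 and Fars2 0.20. For both amino acids the mitochondrial value lay above the cytosolic ones. None of these differences between enzymes was tested.

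Genes that work beside the synthetases were described through 5 lists, and limma called 0 of their genes at an adjusted p under 0.05. The scaffold genes of the complex had differences of -0.38 for Aimp2, -0.29 for Eef1e1 and 0.46 for Aimp1. By the brightest probe set of Aimp1 every probiotic sample lay above every high-fat sample. The closest values nearly met, at 9.536 in probiotic sample 3 and 9.530 in high-fat sample 3. Another Aimp1 probe set had -0.21. Without high-fat sample 2 Aimp2 had -0.23 and Eef1e1 -0.12, and for Aimp1 leaving out probiotic sample 2 gave 0.22 and a model with the Actb gap 0.087. The median of the scaffold genes, -0.29, was -0.12 when high-fat sample 2 was left out, -0.13 when probiotic sample 1 was and -0.47 when high-fat sample 1 was. Of the 6 cytosolic elongation factor genes, 5 had negative differences, with a median of -0.20. Eif5a, a factor that helps ribosomes past difficult stretches, had 12.90, 12.71 and 12.72 in the probiotic and 13.23, 13.27 and 13.09 in the high-fat samples, a difference of -0.42 (SE 0.141) with no overlap. Eef2, the translocation factor, had -0.23, also with no overlap. Eef1g had -0.38 and, by another probe set, 0.82, and Eef1d had 0.18, which was 0.062 without high-fat sample 1. The median of this list was -0.11 without high-fat sample 3.

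Of 10 tested genes of mitochondrial translation factors and the glutamine amidotransferase, 6 had negative differences, with a median of -0.22 that was -0.089 without high-fat sample 2 and -0.12 without probiotic sample 3. Gfm2, the recycling factor, had -0.44, Mtif2, the initiation factor, -0.39, Mtfmt, the formyltransferase of the initiator tRNA, 0.44 and the release factor Mtrf1 1.17. Without high-fat sample 2 the values were 0.37 for Mtrf1, 0.21 for Mtfmt, -0.24 for Gfm2 and -0.67 for Mtif2, and without high-fat sample 3 Mtif2 had -0.18. With the Actb gap in the model Gfm2 had 0.21. At an unadjusted p under 0.05 there were 0 genes in this list and 0 among the scaffold genes, 1 among the cytosolic elongation factors, and 0 in the eIF2alpha list below. Over all probe sets tested the shares were 3.86% with negative and 2.99% with positive differences. Nothing is read from such counts in lists this short.

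The genes of the amino acid response, the pathway that raises synthetase transcripts through ATF4, went both ways. Of 28 tested genes, 13 had negative and 15 positive differences, with a median of 0.082, and 4 had an unadjusted p under 0.05, 1 of them negative and 3 positive, where the shares over all probe sets tested were 3.86% and 2.99%. Asns, the asparagine synthetase and a classical ATF4 target, had a difference of -0.74 (SE 0.519) with overlap. Its values were 8.85, 8.71 and 8.00 in the probiotic and 10.61, 8.45 and 8.72 in the high-fat samples. Only high-fat sample 1 lay above the probiotic samples. Atf4 itself had a difference of -0.022. Both are named after their values were seen. Phgdh, the entry enzyme of serine synthesis, had 9.14, 6.42 and 6.44 in the probiotic and 10.30, 7.86 and 8.09 in the high-fat samples, a difference of -1.42 with overlap through probiotic sample 1. It was -0.64 without high-fat sample 1.

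The stress regulators Atf3, Ddit3 and Sesn2 of the same list had their highest value in probiotic sample 2. Atf3 had 4.80, 13.86 and 6.65 in the probiotic and 7.30, 7.02 and 7.25 in the high-fat samples. Ddit3, which encodes the CHOP transcription factor, had 8.82, 12.23 and 9.04 in the probiotic and 8.59, 8.75 and 8.86 in the high-fat samples. Without probiotic sample 2 the difference of Atf3 was -1.47 in place of 1.24 and that of Ddit3 was 0.19 in place of 1.30. Sesn2, a stress-induced inhibitor of growth signalling, had 9.91, 11.07 and 10.51 in the probiotic and 10.07, 8.53 and 8.88 in the high-fat samples, a difference of 1.34 (SE 0.418). The Sesn2 difference was still 1.04 without probiotic sample 2, as probiotic sample 3 also lay above every high-fat sample. The median of the list was -0.25 when probiotic sample 2 was left out and -0.54 in a model with the Actb gap, where Sesn2 had 0.41, Ddit3 -0.70 and Atf3 -4.00. The level of the cytosolic synthetases in probiotic sample 2, at -0.21, lay between those of the other probiotic samples.

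The eIF2alpha list holds the kinases and phosphatase subunits that act on eIF2alpha, together with the gene of eIF2alpha itself. Of its 7 genes, 5 had positive differences, with a median of 0.22 that was 0.028 without high-fat sample 2. Eif2ak4, the sensor of uncharged tRNA, had 0.31 and 0.0053 without high-fat sample 2. Eif2s1, which encodes eIF2alpha, had 9.93, 10.13 and 10.19 in the probiotic and 10.42, 10.45 and 10.47 in the high-fat samples, a difference of -0.37 (SE 0.181) with no overlap. The phosphatase subunits Ppp1r15a and Ppp1r15b had 1.12 and 0.59, and without probiotic sample 2 these were 0.41 and 0.30. With the Actb gap in the model they were -0.37 and 0.067.

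**Figure D5:**
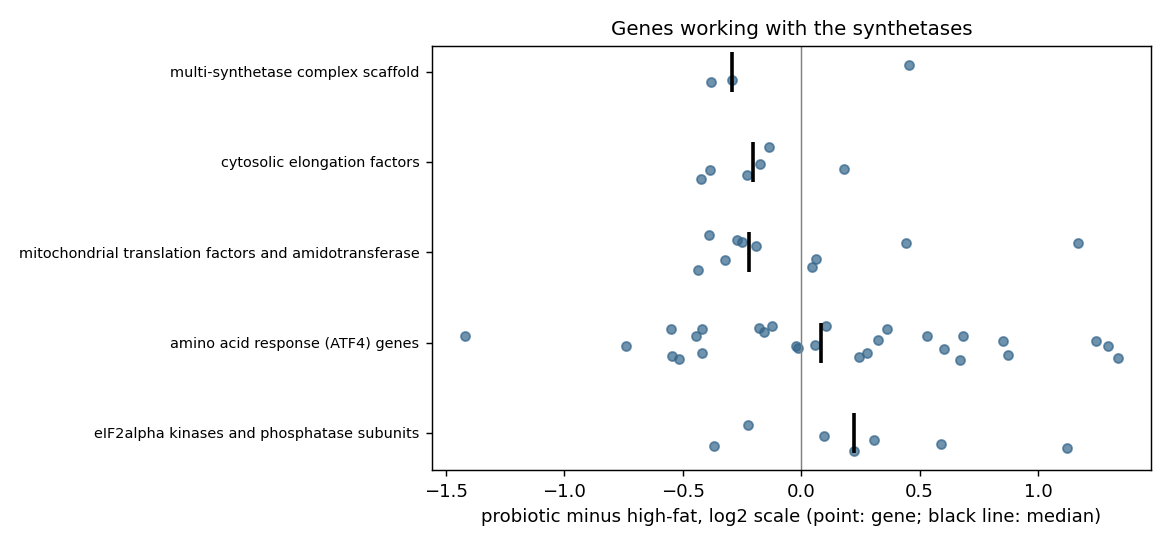
Difference of each gene by its brightest tested probe set, probiotic minus high-fat on the log2 scale, in 5 lists of genes that work with the synthetases, with the median of each list as a black line. With all samples, the medians run from -0.29 for the complex scaffold to 0.22 for the eIF2alpha list.

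Promoters are shown because cytosolic enzymes had values of the same direction and are known as ATF4 targets. RefSeq promoters of assembly GRCr8, from 250 bases before to 50 after the gene start, were matched for 33 of the 35 genes, and Gars1 and Rars1 are named only. They were searched on both strands for TGATGNAA, the core of the amino acid response element that ATF4 binds with C/EBP partners. It was found in 7 of 17 cytosolic promoters (41.2%) and in 0 of 18 mitochondrial promoters of 16 genes, against 3.98% of 33469 promoters. Cytosolic genes with a match were Aars1, Cars1, Iars1, Mars1, Nars1, Tars1 and Yars1. A second motif, GCGCANGCG, the first letters of the site of NRF1, a factor of many mitochondrial protein genes, was in 3 cytosolic promoters (17.6%) and 4 mitochondrial ones (22.2%), against 5.8% of all. Those 4 were of Wars2, Pars2, Iars2 and Vars2. In Tars1, the only member with both motifs, the matches did not overlap.

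The following stretches are the 250 bases before the gene start of Eprs1, whose values led to the family, and of Aars1, the last 100 bases before the start for 4 more enzymes with a match, and 30 bases around the match for Cars1 and Yars1, where it lies past the start. All are printed 5' to 3' on the strand of the gene. Capitals mark the match, which reads as TGATGNAA on this strand in Nars1 and Yars1 and on the opposite strand in the others. It begins at -112 in Aars1, -24 in Iars1, -17 in Mars1, -14 in Nars1, -27 in Tars1, 18 in Cars1 and 39 in Yars1, counted from the gene start. Aars1 has another match at 10, outside the stretch shown. Eprs1 has none of these letters in its window.
Eprs1 (chr13:99433003-99433252, plus strand): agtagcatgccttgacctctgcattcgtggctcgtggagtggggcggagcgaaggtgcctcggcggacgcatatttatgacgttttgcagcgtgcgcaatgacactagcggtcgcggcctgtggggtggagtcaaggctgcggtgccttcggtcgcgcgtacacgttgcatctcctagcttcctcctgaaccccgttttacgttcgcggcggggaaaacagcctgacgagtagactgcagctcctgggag
Aars1 (chr19:55908232-55908481, plus strand): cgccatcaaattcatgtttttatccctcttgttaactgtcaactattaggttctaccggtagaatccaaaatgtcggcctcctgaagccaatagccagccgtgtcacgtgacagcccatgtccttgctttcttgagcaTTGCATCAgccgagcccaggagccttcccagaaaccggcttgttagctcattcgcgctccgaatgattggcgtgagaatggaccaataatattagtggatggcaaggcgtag
Iars1 (chr17:15193653-15193752, minus strand): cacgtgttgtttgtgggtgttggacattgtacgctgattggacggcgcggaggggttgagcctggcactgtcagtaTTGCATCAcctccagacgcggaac
Mars1 (chr7:65023754-65023853, minus strand): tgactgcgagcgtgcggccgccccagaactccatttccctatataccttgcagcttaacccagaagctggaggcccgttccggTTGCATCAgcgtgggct
Nars1 (chr18:60275783-60275882, minus strand): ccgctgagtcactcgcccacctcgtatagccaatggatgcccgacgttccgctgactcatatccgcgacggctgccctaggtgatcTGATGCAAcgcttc
Tars1 (chr2:62114803-62114902, minus strand): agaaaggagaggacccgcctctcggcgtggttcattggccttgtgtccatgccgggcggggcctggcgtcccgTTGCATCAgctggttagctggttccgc
Cars1 (chr1:208225334-208225363, minus strand): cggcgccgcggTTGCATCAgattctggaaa
Yars1 (chr5:146820183-146820212, plus strand): cggagctacgagctcagcTGATGCAAcctg

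Cytosolic enzymes with and without the motif had nearly equal medians, but those without it include Eprs1, whose values led to the family. The 12 tested probe sets of the 7 genes with a match had a median difference of -0.34, with 11 negative and 3 without overlap. The 16 probe sets of the 10 cytosolic genes with a promoter but no match had a median of -0.33, with 14 negative and 6 without overlap. Among these 16 are the 3 tested Eprs1 probe sets, and 1382040_at is also among the 6. A median without Eprs1 is not given. Over all probe sets tested, 6.7% had lower values in the probiotic group with no overlap. The 2 sets were not compared by a test, and nothing is read from these counts. Eprs1, Wars1, Hars1, Farsb and Kars1, all among the enzymes without overlap between groups, had no match, while Aars1, Yars1 and Cars1 had one. A match is a description of letters and not evidence of binding.

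Markers of other liver cells did not all have like values in the groups. Of 10 markers of Kupffer cells and macrophages, 9 were tested and all 9 had negative differences, with a median of -0.38. Their summed intensity was 11452 to 14491 in the probiotic and 14064 to 19243 in the high-fat samples. The 3 tested neutrophil markers had a median of -1.07 and summed intensities of 274.8 to 483.0 in the probiotic and 629.6 to 1071 in the high-fat samples, with Cxcr2 below the filter and Mpo and Elane without a probe set under these symbols. The 4 tested erythroid markers had a median of 0.67 and sums of 30413 to 53637 in the probiotic and 19862 to 26615 in the high-fat samples. With this Actb gap in the model, the Kupffer median was -0.091, the neutrophil median -1.91, the erythroid median -0.16 and the cytosolic synthetase median -0.35. For neutrophil markers, leaving out probiotic sample 1 gave a median of -0.66 and leaving out probiotic sample 2 one of -1.77. For erythroid markers, leaving out probiotic sample 2 gave 0.33, leaving out high-fat sample 2 gave 0.44 and leaving out both gave 0.10. Among the other lists, the median was -0.026 for endothelial, 0.049 for stellate and 0.12 for cholangiocyte markers. It was 0.44 for 4 T cell markers and 0.38 for 3 markers of B and plasma cells. Without high-fat sample 2 the last 2 medians were 0.16 and -0.17. The 1 tested pancreatic acinar marker had 0.088. The part of any of these cells in the synthetase values was not tested.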

How the data were processed

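Per the labels' protocols, 8 ug of liver RNA per sample was labelled for Affymetrix arrays of 1 colour. Values deposited by the authors are 1 linear intensity per probe set and array. Which software made them is not given in the sources used here. On every array the mean after trimming 2% at each end was equal, as a linear scaling gives, which leaves the shapes of the distributions unequal. Quantile normalization of log2(intensity + 16) was therefore applied, and it hides any overall shift between groups. A fold on this scale understates changes of dim probe sets. After removal of 57 control probe sets, those whose 6-array mean reached the 40th percentile were tested (18625).

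Groups, taken from sample titles, were compared over the whole table with limma 3.58.1 in R 4.3.3 (lmFit and trended eBayes). P-values were two-sided and adjusted by Benjamini-Hochberg, with a threshold of 0.05. Gene names came from the platform annotation, and probe sets with several symbols were not named. Probe sets of a gene were kept apart, and the brightest tested one stands for the gene where stated. The members, the gene lists and the settings were chosen with earlier results of these data known. Named members were those of Eprs1, up to 10 probe sets without overlap between groups, and the 5 highest and 5 lowest genes by the brightest probe set. In each list the 4 genes with the largest differences were named. The planned comparison of protein sequences was not run, as no protein sequences were used here. The fit was tested on simulated data. Figures were drawn with matplotlib 3.10.9. Alternatives covered the normalization, pseudocount, filter, trend, array weights, a replicate block, the Actb gap and single samples left out.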

Additional observations from a re-analysis of the deposited data

How the results depend on the processing

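The cytosolic median difference of -0.33 stayed negative in all 20 alternatives run, from -0.37 (without high-fat sample 1) to -0.27 (median centring, or the brightest probe set per gene), and without the Eprs1 probe sets, an alternative chosen after seeing the data, it was -0.30. The mitochondrial median of -0.016 had no stable sign. It was -0.18 with the Actb gap as a covariate, 0.094 with the filter at the 60th percentile, 0.16 with the brightest probe set per gene, and 5.5e-05 to 0.13 with single samples left out. The distance between the families was -0.48 to -0.32 with single samples left out. The distance between the Eprs1 probe sets, -1.63, was -0.42 with the Actb covariate, and the cause was not tested. Members at an unadjusted p under 0.05 numbered 9, and 5 with eBayes without trend or with median centring. With single samples left out they numbered 5 to 8. Member probe sets without overlap numbered 11, and 23 with both arrays of number 2 left out, where 2 samples a group remain, or 13 to 19 with single samples left out, since fewer samples overlap less. Member calls were 0 in every setting except 1 without probiotic sample 1. Calls over all probe sets numbered 4, and 3 to 12 with single samples left out. Deviations of same-numbered samples correlated at 0.144, 0.027 and 0.077, so the numbers were not taken to pair the samples. The replicate block is balanced over the groups and cannot change a difference, so the cytosolic median of -0.33 was fixed in advance. With the block in the limma model, 0 members were called and 13 had an unadjusted p under 0.05. Of 425 single values of 25 named probe sets under 17 alternatives, 416 moved by less than 1 SD. Part of these could not move. Dropping the eBayes trend or adding the replicate block changes no difference and no family median. A changed filter leaves the difference of a single probe set as it is. Such settings add nothing to this count, or to the ranges and sign turns given over 17 other settings. The number of arrays limits the precision, and without the signal filter 29 of 34 cytosolic and 8 of 16 mitochondrial probe sets had negative differences.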
